A study of Glycine max with 4 samples.

Results

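GmWRI1 binding was examined at 4 genes that supply NADPH and sugar phosphates in the developing soybean embryo, 1 gene for 6-phosphogluconate dehydrogenase in the oxidative branch of the pentose phosphate pathway, 2 genes of the aldolase superfamily and the Calvin cycle gene *PRK*. GmWRI1 is the soybean form of WRINKLED1, a transcription factor of the AP2 class that in Arabidopsis is known for activating glycolytic and fatty acid synthesis genes in oil-storing seeds. The 4 genes carry 4 of the 119 sites that the study lists in genes for fatty acid and triacylglycerol synthesis (FAT genes, 110 genes with a site). They were chosen by name from that list, with their binding values already known, and the sites had been located by the study on the same samples. Their enrichment is therefore given as a description, without a test. The study's full list of FAT genes is longer, and shares, medians and ranks of FAT genes below cover only genes with a listed site.

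The data came from chromatin immunoprecipitation and sequencing (ChIP-Seq) of embryos at the early maturation (em) stage, taken from 6 to 7 mm seeds of the cultivar Williams 82. There were 2 ChIP samples, precipitated with 3 µg of an antibody to a GmWRI1 peptide, and 2 input samples of total chromatin without antibody. All 4 came from chromatin fixed with 1% formaldehyde, and the study's methods state that the antibody recognises GmWRI1-A as well as GmWRI1-B, so the copies of the factor cannot be told apart. The replicates are described as biological. The values below are from the peak list of each ChIP sample, while the input reads contributed only to the calling of those peaks. Embryos were sampled whole, so a smaller share of cells with the factor bound and a lower occupancy in each cell cannot be told apart. Peak lists hold no transcript levels, and the labelled tissue was not checked against marker genes.

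The oxidative branch of the pentose phosphate pathway makes NADPH, the reductant consumed in every elongation round of plastid fatty acid synthesis. One of its enzymes, 6-phosphogluconate dehydrogenase, reduces NADP+ to NADPH and releases ribulose 5-phosphate and CO2. Ribulose 5-phosphate is also the substrate of phosphoribulokinase (PRK), which makes the sugar that Rubisco carboxylates. In green oilseed embryos a route through PRK and Rubisco without the rest of the Calvin cycle, called the Rubisco shunt, can recapture CO2 released during oil synthesis.

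Replicate 1 held 22982 peaks and replicate 2 held 20027. The strength of a peak is its fold enrichment, which is the number of ChIP reads at the summit plus 1, divided by the local background plus 1. The median fold enrichment over all peaks was 3.92 in replicate 1 and 4.71 in replicate 2. Summits held 20 to 420 reads in replicate 1, with a median of 37, and 14 to 388 reads in replicate 2, with a median of 26. The lowest background was 7.17 reads in replicate 1 and 3.80 in replicate 2. The lists formed 26116 separate regions, of which 15181 held a peak of both replicates, and these shared regions had a median fold enrichment of 5.03. Intervals in brackets below are exact 95% Poisson intervals of the summit reads with the background held fixed, and they cover counting error only.

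All 4 sites lay under a peak in both replicates, beside 91.6% of the FAT sites and 58.1% of the regions in either list. The summits lay at most 29 bp from the centres of the sites. The lowest −log10 q at a site was 40.2. Of the 4 genes, 3 were in the strongest 5% of peaks of both replicates, beside 56.4% of the FAT genes with a site and 3.45% of all regions. The exception was *PRK*. The other 3 were also in the strongest 1% of both lists. The shares of all regions and of FAT genes at that limit were not computed, so nothing is read from this count. The 4 genes had a median fold enrichment of 44.0, which was 8.75 times that of the shared regions.

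The 6-phosphogluconate dehydrogenase gene Glyma.08G020500, which encodes an NADPH-making step, was the most enriched of the 4. Its site lay at chr8:1669133-1669234 (coordinates here are 1-based on the Wm82.a2.v1 assembly). The summit had a fold enrichment of 44.7 [40.5 to 49.3] in replicate 1 and 72.4 [65.1 to 80.2] in replicate 2, a mean of 58.5 ± 19.6 (SD, n = 2). These were the 27th and the 13th strongest peaks of their lists, and the gene ranked 1 among the 105 FAT genes whose listed site had a peak in both replicates. The summits of the replicates were 1 bp apart. The peak was supported by 408 reads over a background of 8.15 in replicate 1 and by 361 reads over 4.00 in replicate 2.

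**Figure D1:**
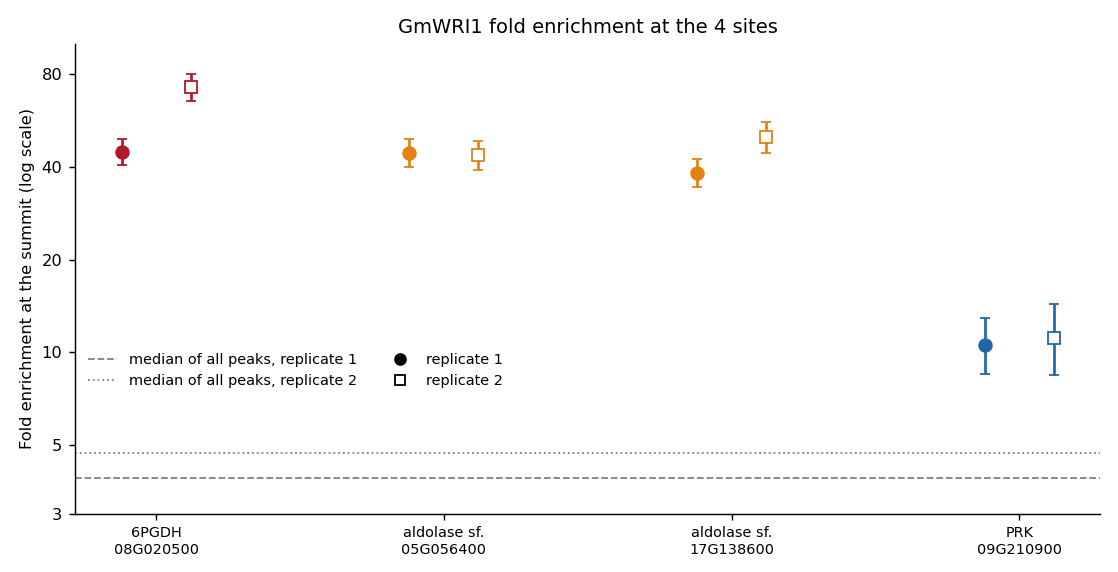
Fold enrichment at the summit (log axis) of the 4 sites in each ChIP replicate, with 95% Poisson intervals of the summit reads. The oxidative pathway gene is red, aldolase superfamily genes (aldolase sf.) orange and *PRK* blue, 6PGDH is 6-phosphogluconate dehydrogenase, and *PRK* lies between 10.5 and 11.1 while the other 3 sites lie between 38.3 and 72.4.

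The aldolase superfamily genes Glyma.05G056400 and Glyma.17G138600 share 1 Arabidopsis homolog, AT1G12230, and the study's pathway table places both in the pentose phosphate pathway. The *FBA6* genes Glyma.03G191500 and Glyma.02G222400 bear the same description but have another homolog and are also placed in glycolysis. Their mean fold enrichments were 14.7 and 4.98, and they are not counted with this pair. The site of Glyma.05G056400 lay at chr5:5165369-5165470 and had a fold enrichment of 44.3 [39.9 to 49.0] in replicate 1 and 43.6 [39.1 to 48.6] in replicate 2. This gene had nearly the same value in both replicates, 44.0 ± 0.457 (SD, n = 2). The site of Glyma.17G138600 lay at chr17:11239327-11239428 and had 38.3 [34.5 to 42.4] in replicate 1 and 49.8 [44.3 to 55.8] in replicate 2, with a mean of 44.1 ± 8.17 (SD, n = 2). The means of the copies were almost equal. Within replicates the ratio of Glyma.05G056400 to Glyma.17G138600 was 1.16 in replicate 1 and 0.88 in replicate 2, so neither copy was the stronger in both.

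*PRK* (Glyma.09G210900), the Calvin cycle gene, was the least enriched of the 4 in both replicates. Its site lay at chr9:43487861-43487962, with a fold enrichment of 10.5 [8.51 to 12.9] in replicate 1 and 11.1 [8.44 to 14.4] in replicate 2, a mean of 10.8 ± 0.399 (SD, n = 2). The peak rested on 91 and 56 reads. It stood at 8.96% from the top of the replicate 1 list and at 10.8% from the top of the replicate 2 list. *PRK* was thus still 2.15 times the median of the shared regions.

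The NADPH-making gene was compared with *PRK* within each replicate. In replicate 1 the fold enrichment was 44.7 at Glyma.08G020500, against 10.5 at *PRK*. In replicate 2 it was 72.4 at Glyma.08G020500, against 11.1 at *PRK*. The counting intervals of these genes did not overlap in either replicate.

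The ratio of Glyma.08G020500 to *PRK* was 4.24 in replicate 1 and 6.51 in replicate 2, or 2.39 ± 0.44 on the log2 scale (SD, n = 2). In summit reads, which do not use the background, the ratio was 4.48 in replicate 1 and 6.45 in replicate 2. The aldolase superfamily pair also stood above *PRK*, with a mean 3.91 times *PRK* in replicate 1 and 4.21 times in replicate 2, or 2.02 ± 0.07 on the log2 scale (SD, n = 2).

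Glyma.08G020500 stood close to the aldolase superfamily pair in replicate 1 and above it in replicate 2. The ratio of its fold enrichment to the mean of the pair was 1.08 in replicate 1 and 1.55 in replicate 2. Over the order of all 4 genes, Glyma.08G020500 was first and *PRK* last in both replicates, and the same held when genes were ordered by summit reads or by −log10 p. In replicate 1, however, the counting intervals of Glyma.08G020500 and both aldolase superfamily genes overlapped. The aldolase superfamily genes changed places with each other between the replicates.

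Spread between the replicates differed among the sites. The fold enrichment at the shared regions was slightly higher in replicate 2, with a median log2 ratio of replicate 2 to replicate 1 of 0.18 and an SD of 0.38. Among the 901 regions in the strongest 5% of both lists the median was 0.30 and the SD 0.31. The log2 ratio was 0.69 at Glyma.08G020500, which exceeded 91.7% of the shared regions and 88.9% of the 901 strongest regions in this ratio. It was 0.38 at Glyma.17G138600. Glyma.05G056400 at −0.02 and *PRK* at 0.08 lay below the median. At 2 of the 4 sites, Glyma.08G020500 and Glyma.17G138600, the counting intervals of the replicates did not overlap. The share of the shared regions with such separate intervals was not computed, so nothing is read from this count. The counting intervals hold the background fixed and so leave out its own counting error. At Glyma.08G020500 the summit held 408 reads over a background of 8.15 in replicate 1 and 361 over 4.00 in replicate 2.

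**Figure D2:**
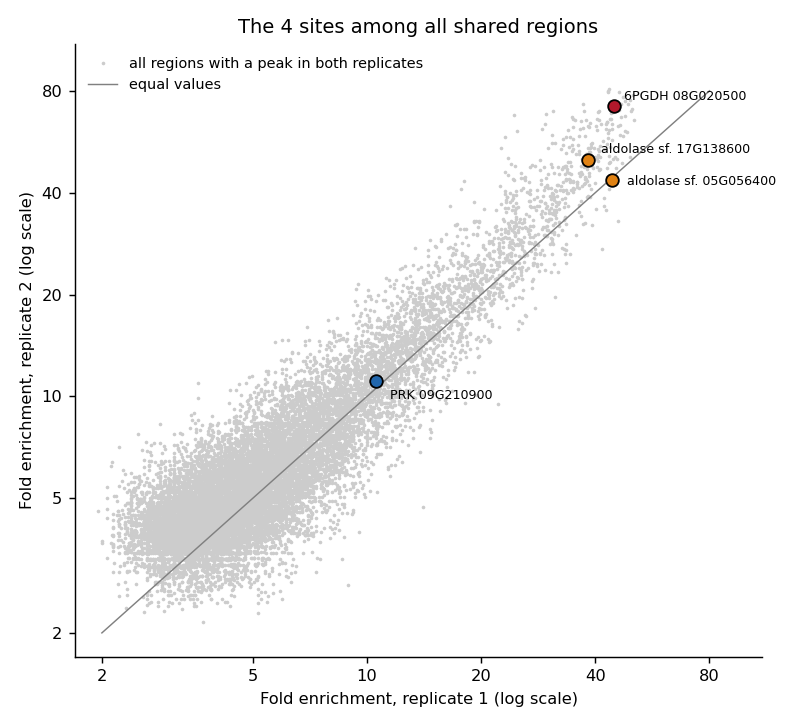
Fold enrichment in replicate 1 (x, log axis) and replicate 2 (y, log axis) for the 15181 regions with a peak in both replicates (grey) and the 4 sites (oxidative red, aldolase superfamily orange, *PRK* blue). Glyma.08G020500 lies above the line of equal values at 44.7 and 72.4, and Glyma.05G056400 lies close to it at 44.3 and 43.6.

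Summit reads and local background were also compared between the replicates. The ratio of summit reads of replicate 1 to replicate 2 ran from 1.13 to 1.25 over the 3 strong sites, beside a median of 1.37 over the strongest regions, and was 1.62 at *PRK*. The ratio of the local backgrounds ran wider, from 1.13 at Glyma.05G056400 to 2.04 at Glyma.08G020500, beside a median of 1.88 over the shared regions. Glyma.05G056400 had the lowest background of the 4 sites in replicate 1, 7.38 reads, and the highest in replicate 2, 6.54 reads. Its summits held 370 reads in replicate 1 and 328 in replicate 2. Those of Glyma.17G138600 held 371 and 296, over backgrounds of 8.72 and 4.96. The background at *PRK*, 7.72 and 4.13 reads, was close to the lowest of each list, so its low fold enrichment went with few summit reads and not with a high background.

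**Figure D3:**
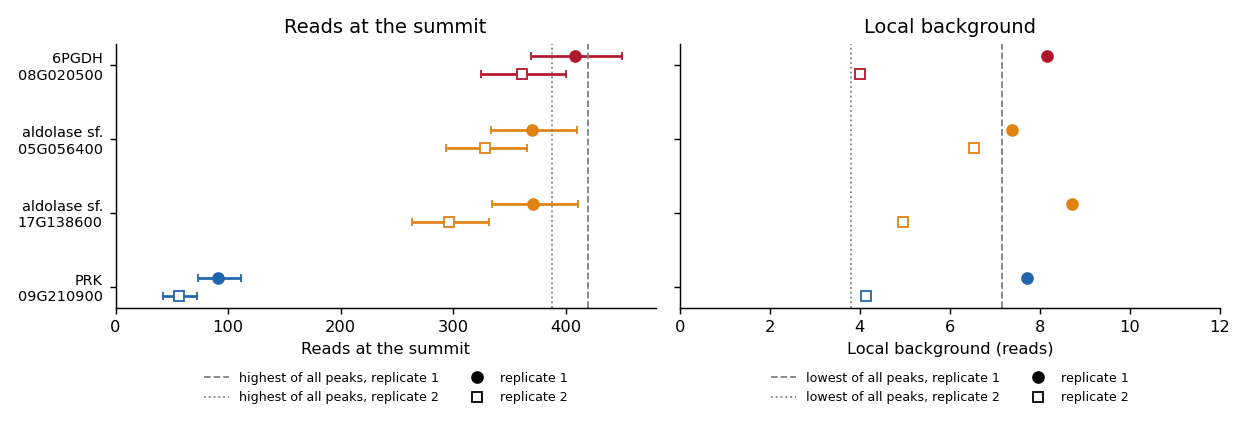
Reads at the summit with 95% Poisson intervals (left) and local background in reads (right) at the 4 sites in each replicate, with the highest summit reads and the lowest background of each list as lines. Reads lie between 296 and 408 at the 3 strong sites and at 91 and 56 at *PRK*.

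The peaks also differed in shape. At the 3 strong sites the summit lay between 53.7% and 63.4% of the way from the left to the right end of the peak. At *PRK* it lay at 32.2% in replicate 1 and 29.9% in replicate 2, so that this peak had its longer side to the right. The position of the summit within all peaks was not examined. The *PRK* peak was 683 bp wide in replicate 1 and 639 bp in replicate 2. Over all peaks the median width was 395 bp and 357 bp. In the strongest 5%, which did not include *PRK*, it was 840 bp and 816 bp. The peaks of Glyma.08G020500 (907 bp and 884 bp) and of the aldolase superfamily genes (765 to 992 bp) were near the median of the strongest 5%.

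Some of the genes had more than 1 peak nearby. At 2 of the 4 sites another shared region had its summit within 5 kb, beside 35.2% of all shared regions and 27.9% of those in the strongest 5% of both lists. Glyma.05G056400 had a peak of 16.4 in replicate 1 and 19.8 in replicate 2, at 2388 and 2399 bp to the right. This flanking peak was itself in the strongest 5% of both lists, and the copy Glyma.17G138600 had none in either list. Glyma.08G020500 had a smaller peak of 6.46 and 9.45, at 1024 and 1022 bp to the left. *PRK* had no other peak within 5 kb in either list, which says only that none passed the q threshold of 0.01. The positions of these peaks relative to exons and transcription start sites were not analysed here.

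**Figure D4:**
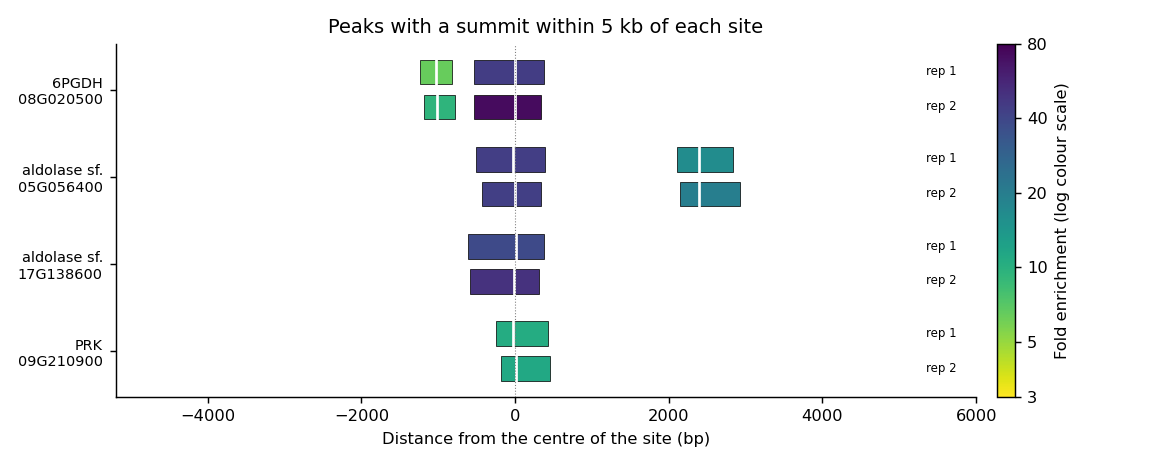
Peaks with a summit within 5 kb of the centre of each site, drawn to scale by distance in bp, with replicate 1 above replicate 2, the summit in white and the fold enrichment on a log colour scale. Glyma.05G056400 has a flanking peak to the right (16.4 and 19.8), Glyma.08G020500 a weaker one to the left (6.46 and 9.45), and Glyma.17G138600 and *PRK* stand alone.

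The study's pathway table covers FAT genes with or without a listed site. Among those considered here it places 136 in the pentose phosphate pathway, the Calvin cycle or the Rubisco shunt. Of these, 57 are not also placed in glycolysis or gluconeogenesis. Positions were taken from listed sites or, failing those, from regions bound at the em or cotyledon (cot) stage. Of the 57 genes, 8 had a position in the study's tables as read here, the 4 genes above and 4 others. All 8 had a peak in both replicates. The positions were listed because they were bound, so nothing is read from this count, and the remaining 49 genes were not analysed here. The 4 others were second copies or a neighbouring step, and 1 of them was in the strongest 5% of both lists.

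Glyma.05G214000, the other located 6-phosphogluconate dehydrogenase gene, had a fold enrichment of 46.5 [42.0 to 51.4] in replicate 1 and 59.1 [52.7 to 66.1] in replicate 2, a mean of 52.8 ± 8.89 (SD, n = 2). Its position came from a region bound at the cot stage, where the study reports that its data fell short of ENCODE quality thresholds. The fold enrichment itself was read from the em peak lists. The ratio of Glyma.08G020500 to it was 0.96 in replicate 1 and 1.22 in replicate 2, so these copies were not separated. The other copy of *PRK*, Glyma.01G010200, had only 5.05 [3.71 to 6.72] in replicate 1 and 5.39 [3.67 to 7.66] in replicate 2. Glyma.09G210900 was 2.09 times that copy in replicate 1 and 2.06 times in replicate 2, with intervals that did not overlap in either replicate. This was the 1 enzyme of the 4 whose located copies kept the same order with separate intervals in both replicates.

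Ribose 5-phosphate isomerase (*EMB3119* in the table) interconverts ribulose 5-phosphate and ribose 5-phosphate in the non-oxidative branch. Its copies Glyma.03G246300 and Glyma.19G243800 were near the median of all peaks in replicate 1 and below it in replicate 2. Glyma.03G246300 had a fold enrichment of 3.85 in replicate 1 and 4.26 in replicate 2. Glyma.19G243800 had 3.95 in replicate 1 and 3.46 in replicate 2, where it stood at 88.2% from the top of the list. Thus the located 6-phosphogluconate dehydrogenase genes lay at 44.7 or above in both replicates, against at most 11.1 at the 4 located genes of ribose 5-phosphate isomerase and *PRK*. High values were not particular to the oxidative step, since the aldolase superfamily pair of the same pathway lay between 38.3 and 49.8. Located Calvin cycle genes also placed in glycolysis had means from 4.68 at *FBP* (Glyma.20G166400) to 26.2 at *TPI* (Glyma.15G038100).

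**Figure D5:**
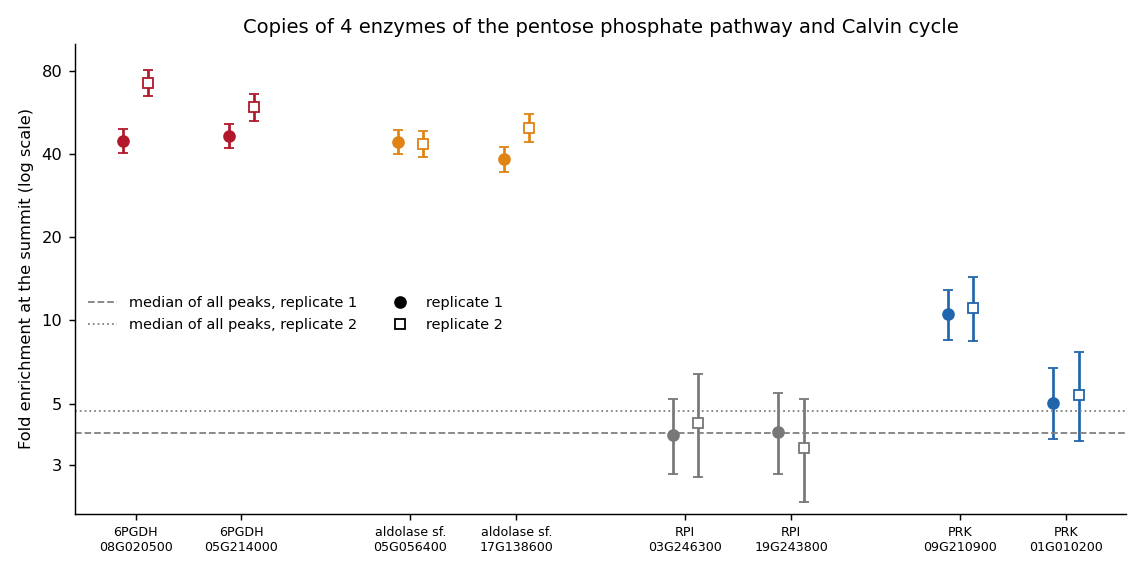
Fold enrichment at the summit (log axis) of the located copies of 4 enzymes in each replicate, with 95% Poisson intervals of the summit reads. RPI is ribose 5-phosphate isomerase, and aldolase sf. is the aldolase superfamily pair with the homolog AT1G12230, without the *FBA6* genes. The oxidative copies and this pair lie between 38.3 and 72.4. The isomerase copies lie between 3.46 and 4.26, and the *PRK* copies at 10.5 and 11.1 and at 5.05 and 5.39.

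Among the 79 genes of the same pathways that are also placed in glycolysis or gluconeogenesis, 18 were located and all had a peak in both replicates. They ranged from 3.46 at *PKp3* (Glyma.01G200200) to 52.8 at *PKP-ALPHA* (Glyma.20G211200), both genes of plastid pyruvate kinase, with a median of 18.04, and 9 of the 18 were in the strongest 5% of both lists. Of the 3 strong genes, the aldolase superfamily pair lay within the range of the 8 *PKP-ALPHA* and *PKP-BETA1* genes, which had a median of 38.2 and a range of 3.92 to 52.8, and the mean of Glyma.08G020500 lay above it. Against the highest of these, Glyma.20G211200 with 44.2 [39.9 to 48.7] in replicate 1 and 61.5 [55.1 to 68.5] in replicate 2, the counting intervals of Glyma.08G020500 overlapped in both replicates. The 5 *BCCP2* and *CAC2* genes, which encode subunits of the acetyl-CoA carboxylase that commits carbon to fatty acids, had a median of 38.5, with a range of 34.8 to 44.9. Over all 105 FAT genes whose listed site had a peak in both replicates the median was 27.7, and by mean fold enrichment the 4 genes ranked 1, 13, 14 and 65 among them, with *PRK* at 65.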

How the data were processed

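The submitters' processing notes name Bowtie 0.12.7 and MACS2, with no version for MACS2, whereas MACS3 is named in the study's methods. How duplicate reads were handled was not given in the sources used here. Wm82.a2.v1 as the build was taken from the annotation note of the study's genes. The deposited lists give the authors' fold enrichment, a ratio of summit reads to local background with a pseudocount of 1. They also give the authors' −log10 p and −log10 q, a summit position and a display score, which was not used. Whole summit reads and the background were solved from fold enrichment and −log10 p (100% of peaks within 0.001 on the −log10 p scale), and the step was tested on simulated data. Total library reads were not used here, so depth is known only at summits.

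A peak belonged to a site if it overlapped the study's position by at least 1 bp. Peaks overlapping between lists formed regions. The members and lists were chosen with earlier results of these data known, so no test was made. An item of the same pathway is not reported here, and it was left out of the gene lists, but not of the totals over FAT sites and FAT genes. The genes named were the 4 members and every located gene of the same pathways outside glycolysis. Also named were the highest and lowest of the glycolysis genes, and of those also in the Calvin cycle. The *FBA6* genes were named for their description. PKP, BCCP2 and CAC2 genes were chosen by name for comparison, and no measure of likeness was computed. Alternatives were other measures, stricter q, other rank limits, the nearest peak, summits within sites, larger overlap and each replicate alone. Python 3.11.15, scipy 1.17.1 and pandas 2.3.3 were used.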

Additional observations from a re-analysis of the deposited data

How the results depend on the processing

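All results of binding rest on 2 replicates, and total depth is unknown. No paired analysis was possible because no result came from a test and the inputs had no peak list to set beside the ChIP samples, and ratios between genes were taken within each replicate. The log2 ratio to *PRK* was 2.39 for Glyma.08G020500 and 2.02 for the aldolase superfamily pair, and became 3.36 and 3.06 in −log10 p, while the pair stood at 2.25 in summit reads. With 1 replicate left out these ratios ran from 2.08 to 2.70 and from 1.97 to 2.07. The aldolase superfamily copies, at 0.0091, were at −0.0072 without the pseudocount and from −0.19 to 0.21 with 1 replicate left out. The 4 genes against the shared regions, at 3.12, gave 3.23 in summit reads, 4.76 in −log10 p, 2.60 at a −log10 q of at least 10, and 3.10 to 3.14 with 1 replicate left out. The lowest −log10 q at a site was 40.2, so the q limit changed only the shared regions. Ratios in −log10 p are on another measure, and their size is not comparable with that of fold enrichment ratios. The cause of the other shifts was not tested. All 4 sites kept a peak in both replicates under the 3 alternatives tried. This was largely given in advance, since the study located the sites on the same samples. The count of genes in the strongest peaks was 3 under each alternative ranking, limit or single replicate. The shares of all regions under the other rankings and limits were not computed. The 22 other located genes of the pathways fell to 19 with the summit inside the position and to 17 at a −log10 q of at least 10.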
